A study of Mus musculus with 18 samples.

Results

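Olig2, Apoa2, Ubd, Trim12a, Myo1f and Camk4 are 6 protein-coding genes, of 45706 genes in the count table, whose RNA was almost absent in one Hmga2 genotype and present in the other. They were chosen by their counts in wt and KO cells: almost none in one genotype at both time points, or a strongly lower level in both KO clones at 24 h. Olig2, Apoa2, Ubd, Trim12a and Myo1f were the genes on in wt cells, and Camk4 was the gene on in KO cells. Since the choice used the difference between the genotypes, that difference is described for these genes and carries no test. All 6 passed the filter on low counts, which left 16619 genes, and they did so through the genotype in which they are high.

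RNA sequencing covered mouse induced pluripotent stem cells of 3 lines, wt cells from 1 clone and the Hmga2 knockout clones KO#1 and KO#2, which share all treatments with the wt cells. At 0 h the undifferentiated cells grew on inactivated fibroblast feeders with LIF and 2 kinase inhibitors, and at 24 h they had been moved without feeders to Geltrex with Activin A and bFGF to become epiblast-like cells (EpiLCs). Each of the 6 combinations of line and time had 3 libraries, 18 in all, described as biological replicates. With 1 wt clone, a difference between wt and KO cells cannot be told apart from a difference between clones.

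The libraries held 3466436 to 23872837 counts, and levels are given as CPM, counts scaled to the size of the filtered library and by trimmed mean of M-values (TMM) factors. A level of 3 counts, used as the floor, was 0.116 to 0.984 CPM. In bulk RNA, fewer expressing cells and less RNA per cell cannot be told apart. Hmga2 itself had 13.3 to 22.4 CPM in wt cells at 0 h, against 1.75 to 10.2 CPM in KO#1 and 1.84 to 8.25 CPM in KO#2. At 24 h it had 5.51 to 5.93 CPM in wt cells, 0.871 to 3.67 CPM in KO#1 and 3.02 to 10.5 CPM in KO#2, so the libraries labelled KO#2 overlapped wt cells. With the edgeR quasi-likelihood test and Benjamini-Hochberg adjustment over all tested genes, used throughout, Hmga2 was called lower in the libraries labelled KO#2 at 0 h and in no other comparison with wt cells (log2 fold change -1.90, SE 0.62, adjusted p = 0.023), a call that was lost without KO#2 0 h replicate 1 (-1.81), KO#2 0 h replicate 2 (-1.52) or wt 0 h replicate 3 (-1.68) and with library sizes alone as the scaling (-1.44). In KO#1 Hmga2 gained the call without the filter on low counts, at 0 h (-1.71) and at 24 h (-1.35), and at 0 h without KO#1 0 h replicate 1 (-2.59). The counts cover the whole gene, so reads from a part outside the knockout lesion check nothing about the protein. The study probed Hmga2 protein in wt and KO clones by western blot, which these counts do not cover. All 10 naive pluripotency markers were detected in every group, and their summed level at 0 h was 3120 to 4300 CPM in wt cells, 3270 to 3840 CPM in KO#1 and 2500 to 3160 CPM in KO#2. At 24 h it was 300 to 327 CPM in wt cells, 485 to 604 CPM in KO#1 and 313 to 719 CPM in KO#2, and 5 of the 10 were called higher in both clones, against 5.61% of all tested genes called in 1 direction in both. The summed level of 8 primed epiblast markers at 24 h was 1330 to 2210 CPM in wt cells, above the 578 to 1160 CPM of KO#1 and the 555 to 1290 CPM of KO#2, and 2 of the 8 were called lower in both clones. The part of these marker differences in the levels of the 6 genes was not tested.

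The 6 genes come from unrelated families. Olig2 encodes a basic helix-loop-helix transcription factor of motor neuron and oligodendrocyte precursors, and Apoa2 an apolipoprotein of high-density lipoprotein made mainly by the liver. Ubd encodes FAT10, a ubiquitin-like modifier that is induced by inflammatory cytokines and sends proteins to the proteasome. Trim12a is a mouse member of the Trim5-like group, genes of antiviral restriction that lie in a cluster of near copies, and Myo1f encodes a class I myosin known from leukocytes. Camk4 encodes a calcium/calmodulin-dependent protein kinase known from neurons and T cells, where it acts on CREB. None of them is a usual marker of pluripotent cells.

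Positions are on GRCm38, with the gene models of GENCODE M21. Olig2 (ENSMUSG00000039830) spans chr16:91225457-91228677 on the plus strand, Apoa2 (ENSMUSG00000005681) chr1:171225054-171226379 on the plus strand and Ubd (ENSMUSG00000035186) chr17:37193892-37196095 on the plus strand. Trim12a (ENSMUSG00000066258) spans chr7:104299894-104315466 on the minus strand and Myo1f (ENSMUSG00000024300) chr17:33555707-33607764 on the plus strand. Olig2, Apoa2, Ubd and Myo1f overlap no other annotated gene. Trim12a overlaps the antisense gene Gm15133 without shared exonic bases, and the use of strand in the counting is not given in the sources used here. Of stretches of 75 bases in their transcripts, none was found in another gene's transcripts for 5 of the 6 genes, while 333 of 5965 (5.58%) of those of Trim12a were shared, 178 with Trim5 and 96 with Trim12c.

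The promoters of the 5 genes on in wt cells are shown because these genes were high and low in the same libraries, and that of Trim12c because it is a near copy in the same cluster as Trim12a with the opposite order of levels. Each sequence runs from 250 bases before to 50 bases after the RefSeq start (GRCm38.p6), 300 bases in all, with capitals for matches to the motifs named after it. For Apoa2, RefSeq lists 2 promoters and the one at the GENCODE start is given. The windows are chr16:91225300-91225599 (Olig2), chr1:171224804-171225103 (Apoa2), chr17:37193642-37193941 (Ubd) and chr17:33555457-33555756 (Myo1f) on the plus strand, and chr7:104315446-104315745 (Trim12a) and chr7:104353300-104353599 (Trim12c) on the minus strand.
Olig2: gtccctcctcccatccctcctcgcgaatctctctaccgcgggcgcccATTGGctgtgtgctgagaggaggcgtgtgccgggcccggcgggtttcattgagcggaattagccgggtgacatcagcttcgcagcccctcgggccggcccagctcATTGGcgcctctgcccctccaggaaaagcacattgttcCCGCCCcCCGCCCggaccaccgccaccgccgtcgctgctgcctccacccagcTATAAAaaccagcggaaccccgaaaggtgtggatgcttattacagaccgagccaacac
Apoa2: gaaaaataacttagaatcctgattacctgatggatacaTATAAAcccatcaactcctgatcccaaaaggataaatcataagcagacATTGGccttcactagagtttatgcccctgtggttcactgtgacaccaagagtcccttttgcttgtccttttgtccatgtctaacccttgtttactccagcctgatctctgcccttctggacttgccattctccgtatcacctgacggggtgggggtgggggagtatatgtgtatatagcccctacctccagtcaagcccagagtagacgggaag
Ubd: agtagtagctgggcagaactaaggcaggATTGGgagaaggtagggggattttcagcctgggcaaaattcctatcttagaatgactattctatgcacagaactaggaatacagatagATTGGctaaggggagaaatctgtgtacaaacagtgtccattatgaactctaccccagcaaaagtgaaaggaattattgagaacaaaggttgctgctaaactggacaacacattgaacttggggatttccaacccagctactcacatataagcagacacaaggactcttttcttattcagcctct
Trim12a: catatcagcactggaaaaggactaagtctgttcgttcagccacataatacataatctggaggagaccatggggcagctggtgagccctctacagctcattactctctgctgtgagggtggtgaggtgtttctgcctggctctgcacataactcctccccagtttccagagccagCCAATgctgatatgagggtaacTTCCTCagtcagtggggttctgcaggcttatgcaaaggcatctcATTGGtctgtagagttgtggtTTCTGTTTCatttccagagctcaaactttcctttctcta
Trim12c: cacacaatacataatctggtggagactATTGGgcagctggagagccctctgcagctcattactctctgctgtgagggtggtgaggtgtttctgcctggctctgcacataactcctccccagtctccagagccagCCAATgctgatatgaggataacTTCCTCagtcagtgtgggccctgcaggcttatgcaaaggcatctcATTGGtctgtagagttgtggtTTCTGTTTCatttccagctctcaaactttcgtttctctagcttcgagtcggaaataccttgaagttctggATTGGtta
Myo1f: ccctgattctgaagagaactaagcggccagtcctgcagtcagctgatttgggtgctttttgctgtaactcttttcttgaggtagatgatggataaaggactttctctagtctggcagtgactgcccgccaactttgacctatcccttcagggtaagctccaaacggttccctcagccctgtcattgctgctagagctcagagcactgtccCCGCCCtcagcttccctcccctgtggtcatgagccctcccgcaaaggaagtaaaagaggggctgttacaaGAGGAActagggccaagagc

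The letters searched on both strands were TATAAA (for the TATA box), CCAAT (named for its own letters), GGGCGG (known as the GC box), GAAANNGAA (the core of an interferon response element) and GAGGAA (a PU.1-type ETS core). Among all 32851 RefSeq promoters of this length, from 27025 genes, 13.6% held TATAAA, 37.4% CCAAT, 35.7% GGGCGG, 8.56% GAAANNGAA and 28.3% GAGGAA. No motif was found in all 5 promoters: CCAAT stood in those of Olig2, Apoa2, Ubd and Trim12a, TATAAA in those of Olig2 and Apoa2, and GGGCGG in those of Olig2 and Myo1f. GAGGAA was found in those of Trim12a and Myo1f, and GAAANNGAA in that of Trim12a. A match describes these letters only. The promoters of Trim12a and Trim12c were identical at 247 of 260 aligned bases (95%).

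CpG content differed among the 5 promoters. That of Olig2 had 25 CpG dinucleotides, 0.815 of the number expected from its base composition, and 80.3% of all promoters had a lower ratio. The others had 5 CpG (Myo1f, ratio 0.238), 3 (Apoa2, 0.183), 1 (Trim12a, 0.0563) and 0 (Ubd), all below the median of 0.384 over all promoters. The genes on in wt cells thus had 1 promoter rich in CpG and 4 poor in CpG.

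**Figure D1:**
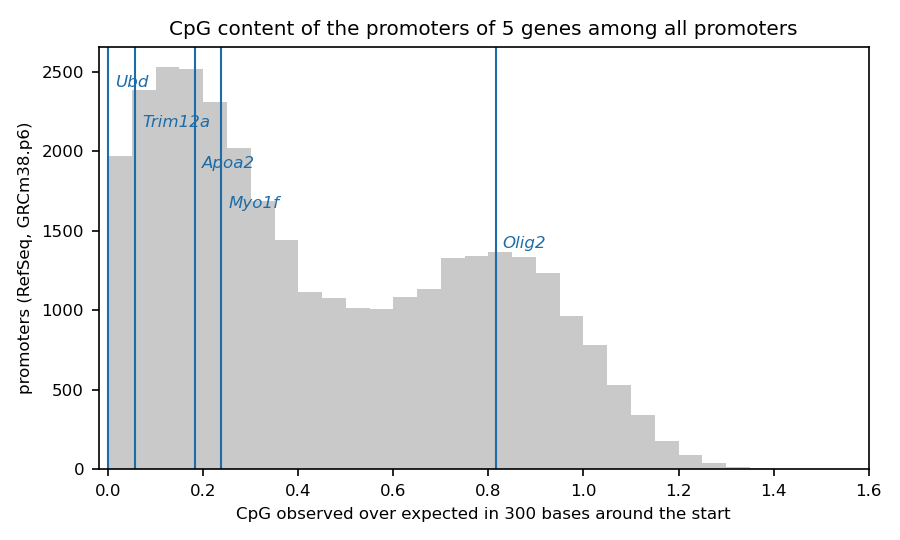
The histogram counts all RefSeq promoters (y axis) by their ratio of observed to expected CpG in 300 bases (x axis), and the blue lines mark 5 genes. Ubd, Trim12a, Apoa2 and Myo1f lie at 0 to 0.238, in the lower hump, and Olig2 lies at 0.815, in the upper hump.

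Olig2 was read in every wt library and in none of the KO libraries. In wt cells it had 109, 209 and 265 counts at 0 h (35.8, 19.2 and 22.1 CPM) and 168, 110 and 191 counts at 24 h (9.86, 11 and 11.8 CPM). All 12 KO libraries had 0 counts, so the groups did not overlap at either time. Against the floor of 3 counts over the group, wt cells at 0 h were at least 222-fold above KO#1 and at least 507-fold above the libraries labelled KO#2. At 24 h the bounds were 143-fold and 246-fold. These bounds depend on the depth of the KO libraries. The lowest were 93.4 without KO#1 0 h replicate 3, 323 without KO#2 0 h replicate 1, 84.6 without KO#1 24 h replicate 3 and 152 without KO#2 24 h replicate 2. Within wt cells, which the choice did not compare, Olig2 fell from 25.7 ± 8.84 CPM (SD, n = 3) to 10.9 ± 0.978 CPM, a log2 fold change of -1.22 (SE 0.33, edgeR adjusted p = 0.0106), and every 24 h library lay below every 0 h library. Of all tested genes, 50.7% were called in this comparison, and the share without overlap between the time points was not counted.

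Ubd had the same pattern at a lower count. In wt cells it had 22, 137 and 98 counts at 0 h (7.22, 12.6 and 8.17 CPM) and 61, 40 and 38 counts at 24 h (3.58, 4.01 and 2.35 CPM). All 12 KO libraries again had 0 counts. Set against KO#1 and KO#2, wt cells were at least 97.8-fold and 224-fold higher at 0 h, and at least 42.3-fold and 72.9-fold higher at 24 h. Without the KO libraries named for Olig2 the bounds were 41.2, 142, 25.1 and 45.2. From 0 h to 24 h it fell in wt cells from 9.32 ± 2.86 to 3.31 ± 0.862 CPM (SD, n = 3; log2 fold change -1.51, SE 0.41, edgeR adjusted p = 0.0115). Without wt 0 h replicate 2 the fold change was -1.22 and the call was lost. Olig2 and Ubd were the 2 genes of the 16619 tested (0.012%) with 0 counts in all 12 KO libraries and at least 10 counts in each wt library, a description of the values that chose them.

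Apoa2 was the only one of the 5 genes on in wt cells that was called higher at 24 h than at 0 h. In wt cells it had 16, 58 and 78 counts at 0 h (5.25, 5.32 and 6.51 CPM) and 561, 241 and 479 counts at 24 h (32.9, 24.1 and 29.6 CPM). In KO libraries it had 0 to 3 counts and at most 0.157 CPM, with 6 of the 12 libraries at 0. The ratio of the pooled levels at 0 h was 86.7 (95% counting interval 23.6 to 723) against KO#1 and 132 (44.4 to 649) against the libraries labelled KO#2. The 24 h ratios were 585 (162 to 4830) and 672 (229 to 3260). They rest on 2 or 3 KO counts: without KO#1 replicate 3 the 0 h ratio was at least 24.3, and without KO#2 replicate 3 it was 275. At 24 h the KO#1 ratio was 880 without replicate 2 and 347 without replicate 3, and the KO#2 ratio 417 without replicate 2 and 444 without replicate 3. In wt cells Apoa2 rose from 5.69 ± 0.705 to 28.9 ± 4.43 CPM (SD, n = 3; log2 fold change 2.33, SE 0.44, edgeR adjusted p = 0.000343), without overlap between the time points, and the same fold change lay between 2.21 and 2.45 when each library was left out in turn. How many of all genes had no such overlap was not counted.

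Myo1f was low but not absent in KO cells. In wt cells it had 50, 94 and 125 counts at 0 h (16.4, 8.63 and 10.4 CPM) and 300, 170 and 131 counts at 24 h (17.6, 17 and 8.09 CPM). KO#1 had 1, 1 and 3 counts at 0 h (0.130, 0.209 and 0.175 CPM) and 4, 3 and 2 counts at 24 h (0.294, 0.307 and 0.124 CPM). The libraries labelled KO#2 had 8, 5 and 5 counts at 0 h (0.325, 0.225 and 0.240 CPM) and 2, 14 and 9 counts at 24 h (0.105, 0.542 and 0.391 CPM). It was the only one of the 6 genes with a count in all 18 libraries. Wt cells were 61.4-fold (26.0 to 191) and 39.0-fold (24.2 to 66.8) above KO#1 and KO#2 at 0 h, and 61.0-fold (31.9 to 134) and 37.8-fold (25.4 to 58.9) at 24 h. In wt cells the time points overlapped, at 11.8 ± 4.07 and 14.2 ± 5.33 CPM (SD, n = 3; log2 fold change 0.29, 95% interval -0.51 to 1.09, edgeR adjusted p = 0.535).

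Trim12a had the lowest counts of the 5 genes on in wt cells. At 0 h it had 6, 13 and 13 counts (1.97, 1.19 and 1.08 CPM), and at 24 h 50, 20 and 23 counts (2.93, 2.00 and 1.42 CPM). Of the 12 KO libraries 11 had 0 counts, and KO#2 24 h replicate 2 had 1 count (0.0387 CPM). Wt cells were at least 12.2-fold and 27.8-fold higher at 0 h than KO#1 and the libraries labelled KO#2, and at least 28.3-fold higher than KO#1 at 24 h. The ratio to the libraries labelled KO#2 at 24 h was 146 (25.6 to 5840), and without the library that held the 1 count it was at least 30.2 and without KO#2 24 h replicate 3 96.8. The other bounds were 5.13 without KO#1 0 h replicate 3, 17.7 without KO#2 0 h replicate 1 and 16.8 without KO#1 24 h replicate 3. In wt cells the level at 24 h, 2.12 ± 0.763 CPM, overlapped that at 0 h, 1.42 ± 0.482 CPM (SD, n = 3; log2 fold change 0.67, interval -0.48 to 1.82, edgeR adjusted p = 0.324).

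Camk4 had the opposite pattern, on in both KO clones and nearly absent in wt cells. The gene (ENSMUSG00000038128) spans chr18:32934931-33191228 on the plus strand and shares 72 exonic bases with the antisense gene 2310026I22Rik, whose reads cannot be told apart without strand. The 6 wt libraries had 0, 1 and 0 counts at 0 h and 0, 0 and 1 counts at 24 h. KO#1 had 9, 7 and 28 counts at 0 h (1.17, 1.46 and 1.63 CPM) and 54, 46 and 82 counts at 24 h (3.97, 4.70 and 5.10 CPM). The libraries labelled KO#2 had 29, 26 and 56 counts at 0 h (1.18, 1.17 and 2.69 CPM) and 78, 97 and 159 counts at 24 h (4.08, 3.75 and 6.91 CPM). All 12 KO libraries lay above all 6 wt libraries. The ratio of KO#1 to wt cells was 38.6 (6.57 to 1560) at 0 h and 199 (35.3 to 7910) at 24 h, and that of the libraries labelled KO#2 was 42.5 (7.48 to 1690) and 212 (37.8 to 8410). Each ratio rests on 1 wt count. Without wt 0 h replicate 2 the 0 h ratios were at least 7.45 and 8.22, and without wt 24 h replicate 3 the 24 h ratios were at least 41.5 and 44.3. They were 20.7 and 22.9 without wt 0 h replicate 3, and 121 and 129 without wt 24 h replicate 1.

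The choice used the level of Camk4 in KO against wt cells, and not its change over time within a clone or the difference between the clones. Camk4 rose from 1.42 ± 0.233 to 4.59 ± 0.575 CPM in KO#1 (SD, n = 3; log2 fold change 1.67, SE 0.45, edgeR adjusted p = 0.00731), where 40.8% of all tested genes were called. In the libraries labelled KO#2 it rose from 1.68 ± 0.873 to 4.91 ± 1.74 CPM (log2 fold change 1.55, SE 0.42, edgeR adjusted p = 0.0106), where 26.0% were called. The 24 h libraries lay above the 0 h libraries in both clones, and the share of all genes separated in this way was not counted. The call in KO#2 was lost without KO#2 0 h replicate 1 (1.35) or KO#2 24 h replicate 3 (1.23), and that in KO#1 with library sizes alone as the scaling (0.88). Between the clones, KO#2 minus KO#1, the log2 difference was 0.22 at 0 h (interval -0.72 to 1.16, edgeR adjusted p = 0.753) and 0.10 at 24 h (-0.74 to 0.94, edgeR adjusted p = 0.873), where 26.4% and 35.4% of all genes were called. With library sizes alone the 24 h difference was 1.15 and passed the threshold.

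**Figure D2:**
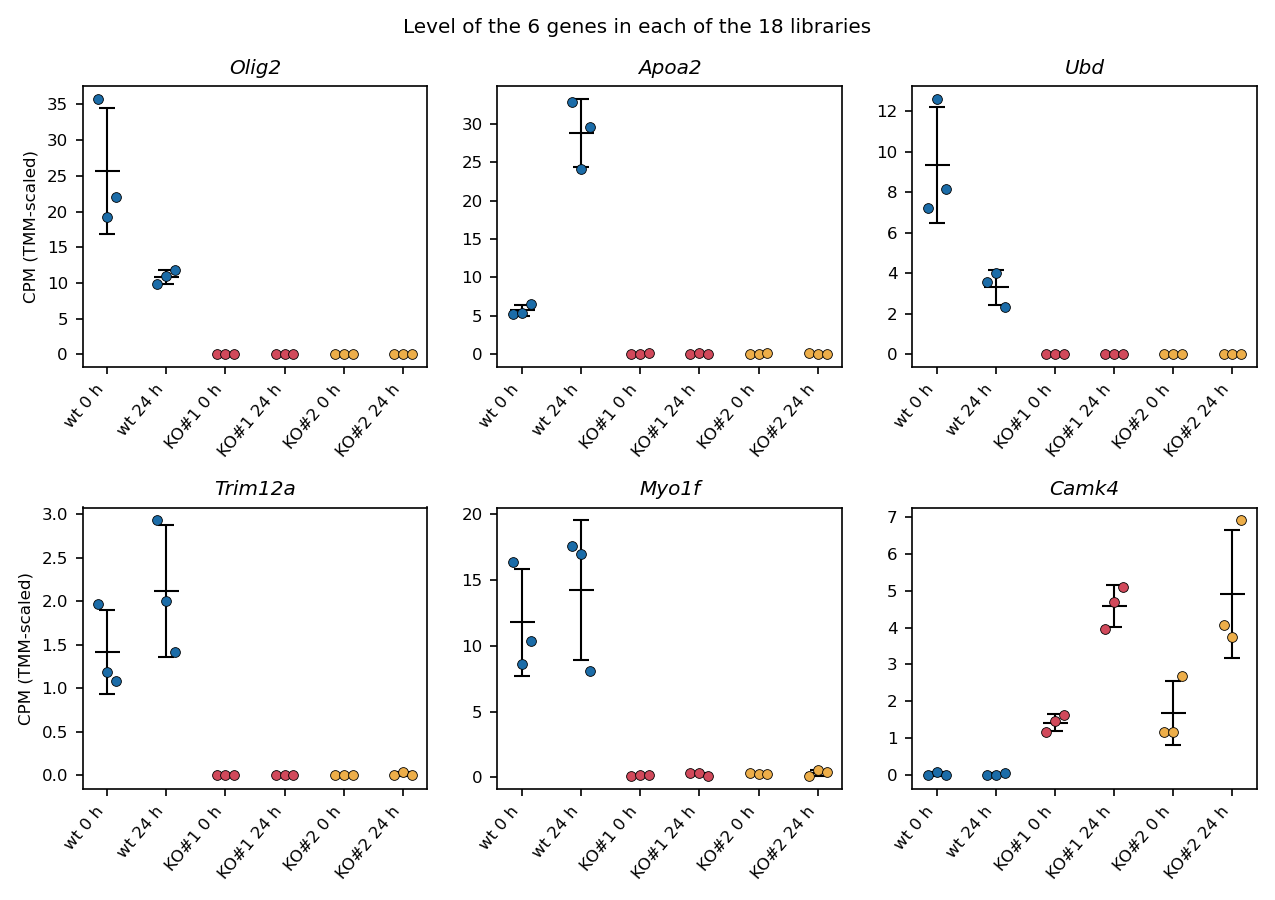
Each panel shows 1 gene, with TMM-scaled CPM on a linear y axis and the 6 groups on the x axis; points are libraries, and the black line and bars are the mean and SD of 3 libraries. Olig2, Apoa2, Ubd, Trim12a and Myo1f are at 1.08 CPM or more in every wt library and at 0.542 CPM or less in every KO library, and Camk4 is at most 0.0918 CPM in wt libraries and at least 1.17 CPM in KO libraries.

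Compared per length of exonic sequence, Apoa2, Olig2 and Ubd had the highest levels of the genes on in wt cells at 0 h. They had mean levels of 10.6 ± 1.31, 10.2 ± 3.5 and 10.0 ± 3.07 CPM per kilobase (SD, n = 3), which did not differ beyond their spread. Myo1f had 2.38 ± 0.819 and Trim12a 0.245 ± 0.0833 CPM per kilobase. At 24 h the order was Apoa2 (53.8 ± 8.24), Olig2 (4.30 ± 0.386), Ubd (3.56 ± 0.926), Myo1f (2.87 ± 1.07) and Trim12a (0.367 ± 0.132), where Olig2 and Ubd, and Ubd and Myo1f, were within the SD of each other. Camk4 in KO cells had a level of 0.437 to 0.515 CPM per kilobase at 0 h and 1.41 to 1.51 at 24 h, between those of Trim12a and Myo1f in wt cells.

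Separation of this kind was rare among all genes. In 106 genes (0.638%) the lowest wt library was above the highest KO library, and in 244 (1.47%) the lowest KO library was above the highest wt library. With a gap of over 10 times between those libraries there were 8 genes on in wt cells (0.0481%) and 30 on in KO cells (0.181%). The 8 are Olig2, Apoa2, Ubd, Trim12a, Myo1f, the pattern-recognition receptor gene Nod1, the processed pseudogene Gm11585 and the long noncoding RNA Gm26858. The 30 include 5 protein-coding genes, Camk4, Baiap2l1, Fam71f1, BC025446 and Gm10260, and 21 processed pseudogenes. Baiap2l1, Fam71f1, BC025446 and Gm10260 are named here after their values were seen.

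The genes most like each of the 6 were taken as those with the smallest root mean square difference in log2 CPM, centred for each gene, over the 18 libraries. The points of every gene are the same libraries, with the same depths and scaling factors for each gene. The step between wt and KO cells by which the 6 genes were chosen also enters this distance. Closeness among the 6, below the median over all genes, therefore follows in part from the choice and carries no test. For Olig2 these were Ubd (0.81), Nod1 (1.01) and Myo1f (1.07), where the median over all genes was 3.44. For Ubd they were Nod1 (0.64), Myo1f (0.69) and Olig1 (0.79), with a median of 2.74. For Myo1f they were Ubd (0.69), Trim12a (0.72) and Gm26858 (0.72), with a median of 2.59. Nod1, an intracellular sensor of bacterial peptidoglycan, had mean levels of 43.0 ± 19.5 and 21.6 ± 7.83 CPM in wt cells (SD, n = 3) and 0.589 to 1.09 CPM in the KO groups.

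Trim12a was closest to Gm26858 (0.37), Cldn34c1 (0.39) and the transcript E330020D12Rik (0.57), with a median of 1.98. Apoa2 was closest to the small nuclear RNA gene Gm25939 (1.00), Myo1f (1.02) and Gm11585 (1.07), with a median of 3.16. Camk4 was closest to the pseudogenes Gm4735 (0.39) and Gm5806 (0.58), with a median of 2.21. Gm4735 had 7.55 ± 2.65 and 11.9 ± 1.22 CPM in wt cells at 0 h and 24 h, 141 ± 36.3 and 337 ± 83.3 CPM in KO#1 and 92.2 ± 24.5 and 247 ± 71.8 CPM in the libraries labelled KO#2 (SD, n = 3). Pseudogenes can share reads with their parent genes, so these levels are uncertain.

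Each gene was then set beside its 5 nearest protein-coding genes on each side. Of the 60 neighbours, 36 passed the filter on low counts. At 0 h, 3 of the 36 (8.33%) were called in KO#1 against wt cells and 18 (50%) in KO#2, against 6.67% and 38.1% of all tested genes. At 24 h it was 6 (16.7%) and 16 (44.4%), against 9.86% and 37.3%. Called in 1 direction in both clones were 3 neighbours at 0 h and 4 at 24 h (8.33% and 11.1%), against 4.78% and 5.61% of all genes. These were 6 genes: Olig1 and Ifnar2 near Olig2, Ppox near Apoa2, Trim34a and Trim12c near Trim12a, and Adamts10 next to Myo1f.

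**Figure D3:**
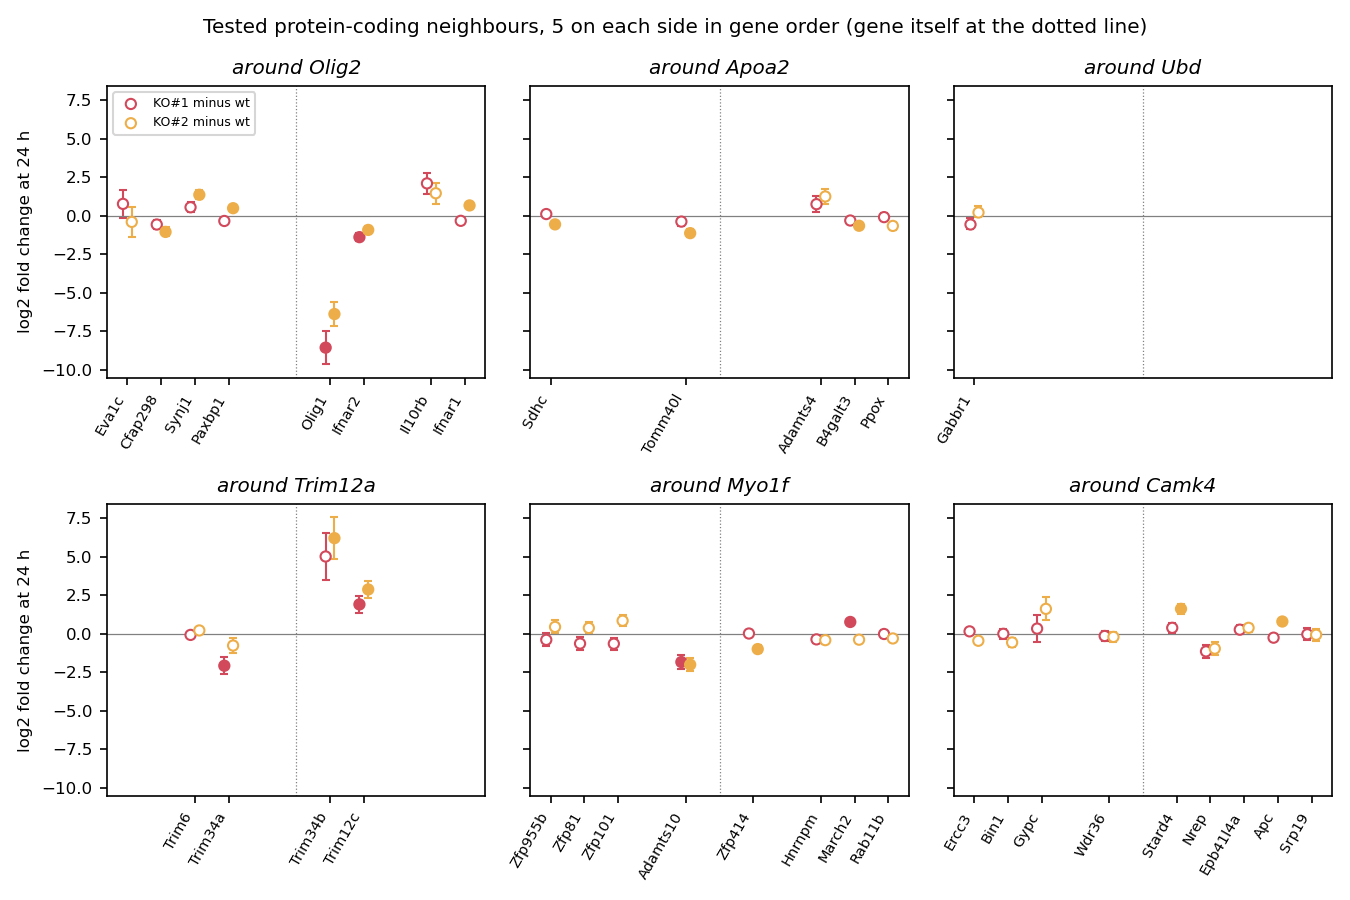
Each panel shows the neighbours of 1 gene that passed the filter, in gene order on the x axis, with the fitted log2 fold change of each KO clone against wt cells at 24 h on the y axis; bars are standard errors, filled points passed an adjusted p of 0.05 and open points did not. 1 tested neighbour is not drawn. Olig1 stands at -8.56 and -6.38 beside Olig2, Trim12c and Trim34b stand above 0 and Trim34a below 0 beside Trim12a, and Adamts10 stands at -1.83 and -2.0 beside Myo1f.

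Olig1, the sister gene of Olig2 with a related role in the oligodendrocyte lineage, lies 41.1 kb from it and had the same pattern. It had 87, 121 and 184 counts in wt cells at 0 h and 45, 31 and 57 at 24 h. KO#1 had 4, 0 and 4 counts at 0 h and none at 24 h, and the libraries labelled KO#2 had 6, 2 and 1 counts at 0 h and 0, 2 and 0 at 24 h. The fitted log2 fold changes were -6.01 (SE 0.67, edgeR adjusted p = 2.73e-05) and -7.02 (0.66, 3.18e-06) at 0 h, and -8.56 (1.09, 7.56e-05) and -6.38 (0.78, 2.73e-05) at 24 h, where the last KO#1 value depends on the prior count because that group was at 0. Without KO#2 24 h replicate 2, which held both counts of its group, the KO#2 value at 24 h was -8.5 and depends on the prior count too. In wt cells Olig1 fell with time (log2 fold change -2.54, SE 0.51, edgeR adjusted p = 0.00073), as Olig2 did. On the other side of Olig2, Paxbp1 was called higher in the libraries labelled KO#2 alone, by 0.91 at 0 h and 0.49 at 24 h (edgeR adjusted p = 0.0017 and 0.0483). The 24 h call of Paxbp1 was lost in 13 of 18 fits that left out 1 library (0.47 to 0.51 over the 18) and without the filter on low counts (0.52). Ifnar2, an interferon receptor subunit, was lower at 24 h in both clones (-1.39 and -0.92, edgeR adjusted p = 0.00259 and 0.011), but the second value became 0.12 with library sizes alone and lost its call without KO#2 24 h replicate 3 (-0.74) or without the filter (-0.89).

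Among other neural genes, Olig1 was called lower in both clones at both times, Sox1 lower at 24 h and Nes higher at 0 h. Of 13 genes of a neural progenitor list other than Olig2, 6 passed the filter, and 2 of the 6 were called in 1 direction in both clones at each time, Olig1 and Nes at 0 h and Olig1 and Sox1 at 24 h, against 4.78% and 5.61% of all tested genes. Sox1 was lower at 24 h (-1.29 and -1.16, edgeR adjusted p = 0.0283 and 0.0154), while Nes was higher at 0 h (0.97 and 0.72, edgeR adjusted p = 0.028 and 0.0341), and both pairs of calls were lost without single libraries. With library sizes alone the calls of Sox1 (-1.32 and -0.13) and that of Nes in KO#1 (1.10) were lost, and without the filter that of Nes in KO#2 (0.76). For Sox1 at 24 h these were any KO#1 library or wt replicates 1 and 3 in KO#1 (-1.35 to -1.12) and KO#2 replicate 3 or wt replicate 1 in KO#2 (-0.92 and -1.03). For Nes at 0 h they were KO#1 replicate 2 or any wt library in KO#1 (0.68 to 1.04) and KO#2 replicates 1 and 2, any wt library or wt 24 h replicate 2 in KO#2 (0.63 to 0.76). At 0 h Sox1 had -0.53 in KO#1 and -1.75 in KO#2 (edgeR adjusted p = 0.436 and 0.00146). Nes at 24 h had 0.36 and -0.0 (edgeR adjusted p = 0.468 and 0.994), and was called in KO#2 with library sizes alone (1.02). The median log2 fold change of the 6 genes at 24 h was -0.99 in KO#1 and -0.58 in KO#2, beside -0.017 and 0.20 over all genes, and at 0 h it was 0.14 in KO#1 and -0.93 in KO#2. The summed level of the 13 genes, Olig1 included, was 35.3 to 70.8 CPM in wt cells at 0 h, overlapping the 35.6 to 54.7 CPM of KO#1 and above the 23.3 to 32.5 CPM of KO#2. At 24 h it was 21.3 to 25.9 CPM in wt cells, above the 15.8 to 20.3 CPM of KO#1 and the 14.7 to 19.5 CPM of KO#2. In wt cells at 0 h, where Olig2 was highest, Nkx2-2 was at 0, and the summed level of 10 neural and oligodendrocyte markers was 36.0 to 42.0 CPM, within the 25.7 to 180.0 CPM of KO#1 at 0 h and above the 31.1 to 31.7 CPM of KO#2. At 24 h the sum was 29.4 to 33.4 CPM in wt cells, below the 48.6 to 61.1 CPM of KO#1 and the 37.2 to 55.3 CPM of KO#2. Of the 7 tested markers of this list 2 were called in 1 direction in both clones at 24 h, against 5.61% of all genes: Pdgfra, a growth factor receptor of oligodendrocyte precursors and mesenchymal cells, higher and Sox1 lower. At 0 h it was 0 of 7 by edgeR, by DESeq2 and at an unadjusted p under 0.05, against 4.78%.

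On the left of Apoa2 the nearest tested gene was Tomm40l, a gene of a mitochondrial protein 2.5 kb away. In KO#1 its log2 fold change against wt cells was 0.41 at 0 h and -0.38 at 24 h (edgeR adjusted p = 0.436 and 0.456). At 24 h in the libraries labelled KO#2 it was lower, with a log2 fold change of -1.13 (SE 0.27, edgeR adjusted p = 0.00321), a call that was lost with library sizes alone (-0.13). Ppox, an enzyme of haem synthesis 49.6 kb away, was lower at 0 h (-1.07 and -0.96, edgeR adjusted p = 0.018 and 0.00821), and in KO#1 the call was lost without KO#1 replicates 1 or 2 or wt replicates 1 or 3 (-1.03 to -0.98). With library sizes alone both calls of Ppox were lost (-0.91 and -0.49). At 24 h Ppox had -0.09 in KO#1 and -0.66 in KO#2 (edgeR adjusted p = 0.907 and 0.0512). The KO#2 value gained the call by DESeq2 and with RLE factors (-0.66 each). It also did so without KO#1 24 h replicates 1 or 3 or wt 24 h replicate 1 (-0.8 to -0.66). Nr1i3 and Fcer1g, which also lie within 5 kb of Apoa2, had at most 4 and 8 counts in any library and were not tested.

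Among other lipoprotein genes, Apoe was called lower in both clones at 0 h and Apom higher at 24 h. Of 16 apolipoprotein and HDL genes other than Apoa2, 10 passed the filter, and 2 of the 10 were called in 1 direction in both clones at each time, Apoe and Pltp at 0 h and Apom and Pltp at 24 h, against 4.78% and 5.61% of all tested genes. Apom, an apolipoprotein of HDL, was higher at 24 h (2.50 and 1.30, edgeR adjusted p = 4.45e-05 and 0.00376), opposite to Apoa2. Apoe was lower at 0 h (-1.52 and -1.24, edgeR adjusted p = 0.00237 and 0.00295), and the KO#2 call was lost with library sizes alone (-0.76). At 24 h Apoe had -0.74 in KO#1 (edgeR adjusted p = 0.109), where it gained the call by DESeq2 (-0.74) and without KO#1 24 h replicate 3 (-1.04). In KO#2 it was called lower at 24 h (-0.78, edgeR adjusted p = 0.0346), and lost the call without KO#2 replicate 1 or wt replicates 2 or 3 (-0.81 to -0.58), without the filter (-0.74) and with at least 10 counts in every library (-0.63), and stood at 0.25 with library sizes alone. Pltp, a phospholipid transfer protein, was lower at 0 h (-0.82 and -0.94, edgeR adjusted p = 0.0491 and 0.00683) and higher at 24 h (0.87 and 0.97, edgeR adjusted p = 0.03 and 0.00527). The KO#1 calls of Pltp were lost without most single libraries at 0 h (-0.88 to -0.61), without the filter or with at least 10 counts in every library at 0 h (-0.82 each) and without KO#1 replicate 3 or wt replicates 1 or 2 or without the filter at 24 h (0.67 to 0.88). With library sizes alone the calls of Pltp were lost at 0 h (-0.68 and -0.47) and in KO#1 at 24 h (0.87). With the replicate number as a block the KO#1 call of Pltp at 0 h was lost too (-0.8). The summed level of the 16 genes at 0 h was 1220 to 1720 CPM in wt cells, 583 to 635 CPM in KO#1 and 675 to 794 CPM in KO#2. Apoe alone made up most of each sum, with 1100 to 1550 CPM in wt cells, 431 to 490 CPM in KO#1 and 507 to 639 CPM in KO#2. The median log2 fold change of the 10 genes at 24 h was 0.64 in KO#1 and 0.77 in KO#2. Of 12 liver and visceral endoderm markers, Alb and Ttr were at 0 in wt cells at 24 h, where Apoa2 was highest, and Alb, Ttr and Apoa1 at 0 h. The summed level of the 12 was 5.42 to 9.76 CPM in wt cells at 0 h, below the 11.1 to 22.4 CPM of KO#1 and the 17.3 to 21.2 CPM of KO#2. At 24 h it was 3.41 to 5.05 CPM in wt cells, below the 9.20 to 19.7 CPM of the KO groups. Of the 8 tested markers 2 were called higher in both clones at each time, against 4.78% and 5.61% of all genes called in 1 direction in both, and these were among Hnf4a, Gata6 and Dab2, genes of endoderm. At 24 h 3 were called higher and 0 lower in KO#1, and 6 higher and 1 lower in KO#2, against 9.86% and 37.3% of all genes. The part of such cells in the level of any of the 6 genes was not tested.

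Ubd lies among olfactory receptor genes, of which none passed the filter. Of its 10 neighbours only Gabbr1, a GABA-B receptor subunit 118.8 kb away, was tested, and its log2 fold changes ran from -1.01 to 0.27 with no call (lowest edgeR adjusted p = 0.0973). It gained a call in KO#1 at 0 h without the filter or without KO#2 0 h replicate 2 or KO#2 24 h replicate 1 (-1.01 each), and in KO#2 at 24 h with library sizes alone (1.34). Olfr94, which starts 0.3 kb from the end of Ubd and is named after its values were seen, had 6, 3 and 15 counts in wt cells at 0 h and 3, 4 and 2 at 24 h. It had 0 counts in 11 of the 12 KO libraries and 1 count in KO#2 0 h replicate 2. Of 13 genes of the FAT10 pathway and the cytokine-induced proteasome other than Ubd, 12 passed the filter and 0 of the 12 were called in 1 direction in both clones by edgeR and by DESeq2 (2 at 0 h and 1 at 24 h at an unadjusted p under 0.05), against 4.78% and 5.61% of all tested genes. KO#1 had 0 calls among the 12 at both times by edgeR and by DESeq2, with 3 at 0 h and 1 at 24 h at an unadjusted p under 0.05, against 6.67% and 9.86% of all genes called. The libraries labelled KO#2 had 2 higher and 5 lower at 0 h, and 1 higher and 2 lower at 24 h, against 38.1% and 37.3% of all genes called. The median log2 fold change at 24 h was 0.24 in KO#1 and -0.05 in KO#2.

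The cluster around Trim12a held genes with opposite orders of levels. Trim34a, 37.7 kb from Trim12a, was lower in KO cells at 0 h (-2.43 and -1.35, edgeR adjusted p = 0.013 and 0.0368) and in KO#1 at 24 h (-2.07, edgeR adjusted p = 0.0172), with -0.76 in KO#2 (edgeR adjusted p = 0.226). Trim12c, 23.3 kb away on the other side, had 2, 19 and 11 counts in wt cells at 0 h and 27, 20 and 22 at 24 h. It was higher in both clones at 24 h, where KO#1 had 132, 58 and 47 counts (log2 fold change 1.91, edgeR adjusted p = 0.0262) and the libraries labelled KO#2 had 190, 224 and 403 (2.88, edgeR adjusted p = 0.000542). At 0 h the fold change of Trim12c was 0.47 in KO#1 (edgeR adjusted p = 0.729) and 1.94 in KO#2 (edgeR adjusted p = 0.0142). Trim34b, between Trim12a and Trim12c, had 0 counts in all 6 wt libraries. It had 2, 2 and 7 counts in KO#1 at 0 h and 1, 0 and 10 at 24 h, and 17, 20 and 18 and then 8, 13 and 20 in the libraries labelled KO#2. Trim34b was called in KO#2 (edgeR adjusted p = 0.00521 and 0.00286) and not in KO#1 (0.0873 and 0.0517). In KO#1 Trim34b was called at 24 h by DESeq2 (4.24), without the filter on low counts (5.01) and without KO#1 24 h replicates 1 or 2 or wt 0 h replicate 1 (5.10 to 5.52), and at 0 h without the filter (5.49) or KO#1 24 h replicate 3 (5.53). The 24 h value of Trim34b in KO#1 was 5.02 with all libraries and 2.62 without KO#1 24 h replicate 3, which held 10 of the 11 counts. The edgeR values of Trim34b against wt cells depend on the prior count, because it had 0 counts in every wt library.

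Several calls in the Trim cluster were lost without single libraries, while that of Trim12c in KO#2 at 24 h was lost in 0 of 18 such fits (2.51 to 3.07). Trim12c in KO#1 at 24 h lost its call without KO#1 replicates 1 or 2 or any wt library of that time (1.45 to 2.09), and in KO#2 at 0 h without wt replicate 3 (1.74). Trim34a at 0 h lost its call in KO#1 without KO#1 replicates 1 or 3 or wt replicate 2 (-2.36 to -2.0) and in KO#2 without KO#2 replicates 2 or 3 or wt replicates 2 or 3 (-1.36 to -0.93) or with library sizes alone (-0.93), and in KO#1 at 24 h without KO#1 replicates 2 or 3 or wt replicate 1 (-2.09 to -1.79). Reads from the stretches that Trim12a shares with Trim12c can be divided between the pair by the counting, while no stretch of 75 bases of Trim12a was shared with Trim34a or Trim34b. Of the 13 listed Trim genes other than Trim12a, 8 passed the filter. Of these 1 was called in 1 direction in both clones at each time, against 4.78% and 5.61% of all tested genes, and their median log2 fold change at 24 h was 0.06 in KO#1 and 0.89 in KO#2. Summed over the 13, the level at 0 h was 243 to 291 CPM in wt cells, overlapping the 186 to 269 CPM of KO#1 and above the 178 to 240 CPM of KO#2. At 24 h the sum, 154 to 200 CPM in wt cells, overlapped the 175 to 223 CPM of KO#1 and lay below the 212 to 299 CPM of KO#2.

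**Figure D4:**
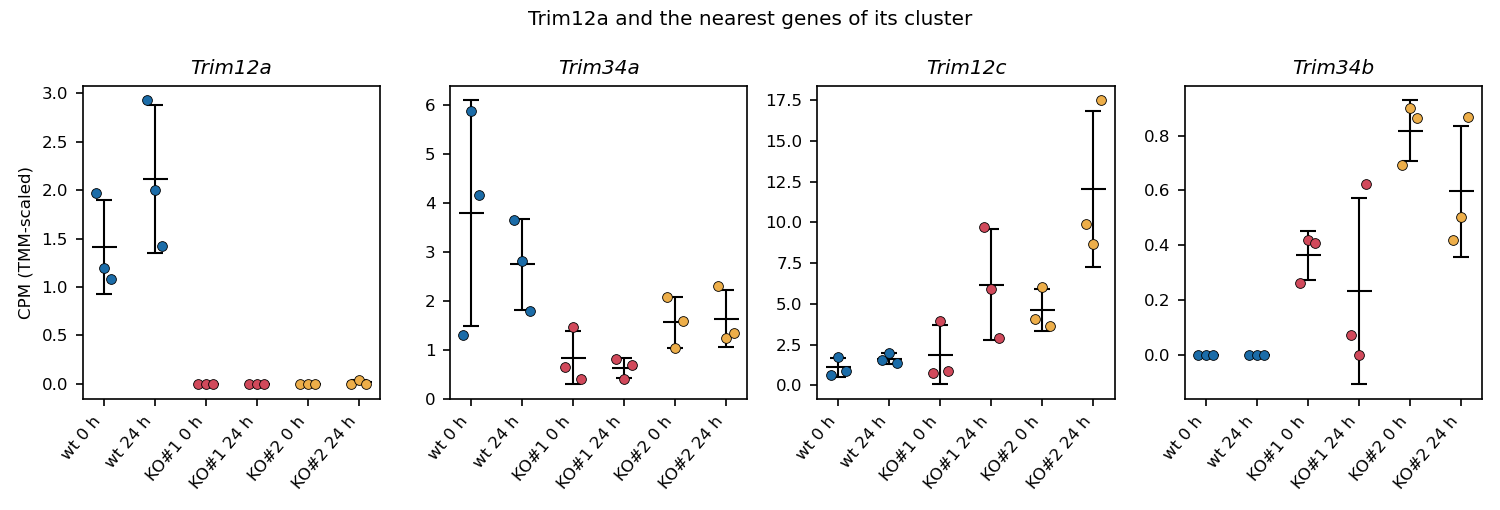
The panels show TMM-scaled CPM (linear y axis, a different range in each panel) of Trim12a, Trim34a, Trim12c and Trim34b in the 6 groups, with 3 libraries as points and the mean and SD in black. Trim12a and Trim34a have their highest libraries in wt cells (2.93 and 5.88 CPM), while Trim12c and Trim34b have theirs in KO#2 (17.5 and 0.899 CPM).

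Myo1f lies next to Adamts10, a metalloprotease gene that ends 1.9 kb before it. Adamts10 was lower at 24 h in both clones (-1.83 and -2.0, edgeR adjusted p = 0.0125 and 0.00192), and at 0 h it had -1.68 and -0.76 (edgeR adjusted p = 0.0698 and 0.199). In KO#1 the 0 h value passed by DESeq2 (-1.74) and without KO#1 0 h replicate 2 (-2.07). The KO#1 call at 24 h was lost without KO#1 24 h replicate 3 (-1.55), and the KO#2 call with library sizes alone (-0.95). On the other side Zfp414, a zinc finger gene 21.3 kb away, was at 0.12 and 0.02 in KO#1 with no call and lower in the libraries labelled KO#2 (-1.41 and -0.99, edgeR adjusted p = 0.000524 and 0.00382), with 0.04 at 24 h with library sizes alone. All 7 class I myosins other than Myo1f passed the filter, and 0 of the 7 were called in 1 direction in both clones by edgeR, by DESeq2 or at an unadjusted p under 0.05, against 4.78% and 5.61% of all tested genes called by edgeR. Their calls were all towards higher levels, with 2 in each clone at 24 h against 9.86% (KO#1) and 37.3% (KO#2) of all genes, and their median log2 fold change there was 1.05 in KO#1 and 0.58 in KO#2.

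Leukocyte markers were set beside Myo1f. Ptprc, Csf1r and Tyrobp, which define leukocytes and myeloid cells, were at 0 in wt cells at 0 h, where Myo1f had 8.63 to 16.4 CPM. The other 7 of 10 leukocyte markers were read there, and at 24 h Csf1r alone of the 10 was at 0 in wt cells. The summed level of 10 leukocyte markers at 0 h was 120.0 to 173 CPM in wt cells, 79.5 to 123 CPM in KO#1 and 93.5 to 109 CPM in KO#2. At 24 h it was 62.1 to 86.1 CPM, 88.7 to 126 CPM and 58.0 to 83.4 CPM. None of the 8 tested markers was called in KO#1 by edgeR or DESeq2, with 5 at 0 h and 1 at 24 h at an unadjusted p under 0.05, against 6.67% and 9.86% of all genes called. In KO#2 at 0 h 1 was called higher and 1 lower, against 38.1% of all genes.

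Ubd and Myo1f lie on the same chromosome, 3.59 Mb apart, and Gm26858 lies 4.82 Mb from Ubd. Of 142 tested genes between Myo1f and Ubd, 11 (7.75%) were called in 1 direction in both clones at 0 h and 13 (9.15%) at 24 h, set beside the 4.78% and 5.61% of all genes given for the neighbours.

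Around Camk4 the nearest tested genes were Stard4, a sterol transfer protein gene 8.1 kb away, and Wdr36, 67.3 kb away. Stard4 was higher in the libraries labelled KO#2 (1.20 and 1.62, edgeR adjusted p = 0.0105 and 0.000704), with 0.37 and 0.39 in KO#1 (edgeR adjusted p = 0.601 and 0.529). Its 0 h call in KO#2 was lost without wt 0 h replicate 3 (0.80). Wdr36 had fold changes from -0.20 to 0.42 with no call, and 0.86 in KO#2 at 24 h with library sizes alone. By edgeR and by DESeq2 none of the 9 tested neighbours of Camk4 was called in 1 direction in both clones, and 1 was at each time at an unadjusted p under 0.05. Of 16 genes of the calcium/calmodulin kinase cascade other than Camk4, 15 passed the filter and 0 of the 15 were called in 1 direction in both clones by either tool, with 2 at 0 h and 0 at 24 h at an unadjusted p under 0.05, against 4.78% and 5.61% of all tested genes called by edgeR. In KO#1 at 24 h 2 were higher and 1 lower, against 9.86% of all genes called, in KO#2 3 were higher and 1 lower, against 37.3%, and the median log2 fold changes were 0.18 and 0.29.

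Fibroblast markers were set beside the levels of the 6 genes. Of 8 markers, all tested, 4 were called higher at 0 h and 6 at 24 h in KO#2, against 38.1% and 37.3% of all genes called. In KO#1 0 were called at 0 h by edgeR and by DESeq2 (2 at an unadjusted p under 0.05), and 1 was called higher and 1 lower at 24 h, against 6.67% and 9.86% of all genes. The summed level of the 8 at 0 h, with feeders, was 110.0 to 390.0 CPM in wt cells, 183 to 514 CPM in KO#1 and 331 to 898 CPM in KO#2. Without feeders, at 24 h, the sum was 19.0 to 34.6 CPM in wt cells, 38.7 to 51.8 CPM in KO#1 and 71.0 to 219 CPM in KO#2. At 24 h the sum was lowest in wt cells, where Camk4 was nearly absent and the other 5 genes were on. Over time Camk4 was higher at 24 h in both clones while the fibroblast sum was lower, and the part of feeder RNA in any of these levels was not tested.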

How the data were processed

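The authors deposited counts, whole numbers of reads per gene for 45706 genes in 18 libraries, without normalization. Per the methods of the study, stranded libraries from total RNA were sequenced as paired ends, adapters trimmed, ribosomal reads removed and reads aligned to GRCm38 with STAR; the annotation release and the use of strand in the counting are not given in the sources used here. No 2 libraries had identical counts (0 pairs).

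Libraries were grouped by their labels. Genes were filtered (filterByExpr, minimum count 10), scaled by TMM and fitted with edgeR 4.0.16 (R 4.3.3) in 1 quasi-likelihood model of 6 groups, with calls at an adjusted p of 0.05. Standard errors are the log2 fold change over the square root of F. Ratios pool counts over a group, with exact 95% intervals or a floor of 3 counts over the group, and intervals cover counting error only. DESeq2 1.42.0 was an alternative; the others are described with the results that depend on processing. Positions are from GENCODE M21 (45143 of the identifiers matched) and promoters from RefSeq; 5 of the 6 genes and Trim12c are shown. The model was tested on simulated counts.

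The 6 genes, their lists and the tests were chosen with earlier results of these data known. Besides the 6 genes and Hmga2, the text names their nearest tested coding neighbours, those of 5 on each side called in 1 direction in both clones, the 3 genes most alike, and list members called in 1 direction in both clones. Some genes that this rule named are not reported here.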

Additional observations from a re-analysis of the deposited data

Results flagged for a closer look

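Pltp, a phospholipid transfer protein named from the lipoprotein list, responded differently to induction in wt and KO cells. It went from 56.4 ± 15.9 to 8.89 ± 0.792 CPM in wt cells (SD, n = 3), from 31.9 ± 4.06 to 16.3 ± 4.20 CPM in KO#1 and from 29.5 ± 3.76 to 17.5 ± 3.10 CPM in the libraries labelled KO#2. The interaction term, the 24 h response of the KO clone minus that of wt cells, was 1.69 for KO#1 (SE 0.35, edgeR adjusted p = 0.0393) and 1.91 for KO#2 (SE 0.35, edgeR adjusted p = 0.013). The 2 comparisons share the wt libraries. Pltp was named from its calls against wt cells at 0 h and 24 h, and the interaction term is the difference of those contrasts. The term therefore adds no separate test. In KO#1 the 0 h call was lost in 15 of 18 fits that left out 1 library, and the interaction term was not refitted in other settings.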

How the results depend on the processing

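The tests of the 6 genes kept their direction and side of the threshold with DESeq2, with RLE factors, without the filter on low counts and with the replicate number as a block. None of the 6 genes has 10 counts in every library. At an adjusted p of 0.01 the calls numbered 3999 (24 h against 0 h in KO#1), 2275 (in KO#2), 501 and 806 (KO#1 against wt cells at 0 h and 24 h), 3122 and 3595 (KO#2 against wt cells) and 1914 and 3402 (KO#2 against KO#1). With at least 10 counts in every library they were 2614 (24 h against 0 h in KO#2), 473 and 824 (KO#1 against wt cells), 3813 and 4100 (KO#2 against wt cells) and 2900 (KO#2 against KO#1 at 0 h), with fewer genes tested. With library sizes alone, which moved the median of all genes by 1.04 (KO#2 against wt cells at 24 h), 1.07 (KO#2 against KO#1 at 24 h), -0.62 (over time in wt cells) and -0.79 (in KO#1), they were 10208, 9986 and, for KO#1 against wt cells at 24 h, 1088. Under that scaling the KO#2 values at 24 h turned to 0.86 (Wdr36), 0.04 (Zfp414), 0.12 (Ifnar2) and 0.25 (Apoe), and Trim12a and Myo1f over time in wt cells stood at 0.04 and -0.35. The pooled ratios between wt cells and KO#2 at 24 h became 120 (Olig2), 35.5 (Ubd), 327 (Apoa2), 71.2 (Trim12a), 18.4 (Myo1f) and 436 (Camk4). The cause was not tested beyond the shift. Leaving out 1 library gave 2534 to 4787 calls over time in KO#2, 4573 to 7160 in KO#1 and 6822 to 8797 in wt cells, 598 to 1151 and 1028 to 1854 for KO#1 against wt cells, 4459 to 6867 and 4562 to 6702 for KO#2 against wt cells, and 2601 to 4699 and 4359 to 6376 for KO#2 against KO#1. Same-numbered libraries deviated together with a mean r of 0.0531 (-0.255 to 0.587 over 45 pairs), so the numbers do not pair them. The replicate block gave 8647 calls over time in wt cells, of which 8274 were shared with the 8429 without it. It ended the call of Pltp in KO#1 against wt cells at 0 h (-0.80).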
